A study of Mus musculus with 8 samples.

Results

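The miR-106b-25 cluster is a group of 3 miRNA hairpins that lie together in an intron of Mcm7, and its mature miRNAs are described here in liver and liver mitochondria of mice on 2 diets. Its members were the 5 rows named miR-106b-5p, miR-106b-3p, miR-93-5p, miR-93-3p and miR-25-3p, out of 862 miRNA names listed over 8 small RNA sequencing libraries. A name that a library does not list was set to 0. All 5 members were listed in 6 libraries. The libraries of caloric restriction mitochondria replicates 2 and 3 listed 4, without miR-93-3p.

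All libraries came from male wild-type C57BL/6J mice that were 8 weeks old at the start and housed singly. The AL mice ate ad libitum for 12 weeks. The CR mice were under caloric restriction for the same time, which began with 1 week at 20% and went on for 11 weeks at 40%. Each diet has 1 whole-liver library, a pool of 3 RNA samples mixed equally, and 3 libraries of mitochondria, which were isolated by differential centrifugation and purified as mitoplasts. Whether the 3 mitochondrial libraries of a diet are 3 animals is not in the labels. The p-values below therefore measure only the spread between these samples, which may be technical.

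miRNAs are short RNAs that bind messenger RNAs, mainly through bases 2 to 8 from their 5′ end, the seed, and lower the output of those messages. A hairpin precursor is cut into a duplex of a 5p and a 3p arm, and one arm is usually retained while the other is degraded. The cluster is a relative of the miR-17-92 and miR-106a-363 clusters, is transcribed with Mcm7, a subunit of the replicative helicase, and is known for E2F-linked expression in dividing cells and for targeting cell cycle inhibitors such as Cdkn1a and the pro-apoptotic Bcl2l11. In liver it is best known from hepatocellular carcinoma.

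The mature sequences are shown because the members fall into groups by seed and by hairpin, and the 2 arms of miR-106b gave different results. Capitals mark the seed. The sequences in the deposited tables matched those of RefSeq (GRCm38.p6) for all 5 members.
miR-106b-5p: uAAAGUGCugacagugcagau
miR-93-5p: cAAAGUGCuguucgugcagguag
miR-25-3p: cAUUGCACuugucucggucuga
miR-106b-3p: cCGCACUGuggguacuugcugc
miR-93-3p: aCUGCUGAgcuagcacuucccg

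miR-106b-5p and miR-93-5p share the seed AAAGUGC and were identical at 16 of the 21 positions compared from the 5′ end. miR-25-3p has another seed, AUUGCAC, and the 3p arms of miR-106b and miR-93 share a seed with no other member. Relatives outside the cluster carry the same 2 main seeds, and 3 of them are shown for comparison.
miR-17-5p: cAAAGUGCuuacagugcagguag
miR-20a-5p: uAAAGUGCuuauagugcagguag
miR-92a-3p: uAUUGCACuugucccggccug

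No listed relative of miR-106b-5p was closer than miR-20a-5p, miR-17-5p and miR-106a-5p, each identical at 18 of 21 positions. The closest listed relative of miR-93-5p was miR-20b-5p, at 20 of 23 positions. That of miR-25-3p was miR-92a-3p, at 18 of the 21 positions compared. Each member's full sequence occurred in 1 RefSeq hairpin only, but how mismatched reads were shared between such relatives is not given in the sources used here, so small transfers between them cannot be seen.

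On GRCm38.p6 the hairpins lie on the minus strand of chromosome 5, Mir106b at 138165737 to 138165818, Mir93 at 138165523 to 138165610 and Mir25 at 138165321 to 138165404. The cluster spans 498 bases. In GENCODE M21 all 3 hairpins lie in intron 13 (138165162 to 138165909) of the principal Mcm7 transcript, which has 15 exons, and none overlaps an exon or UTR of that transcript. Mir93 and Mir25 also fall in exon 1 of a non-coding retained-intron transcript of Mcm7. The miR-106b hairpin is shown whole, 5′ to 3′, because its arms behaved differently, with the 5p arm first and the 3p arm second in capitals.
Mir106b: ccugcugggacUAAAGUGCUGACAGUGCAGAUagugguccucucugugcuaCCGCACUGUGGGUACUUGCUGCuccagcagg

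Levels are given in RPM, a library's miRNA reads scaled to a total of 1000000, which is a share of a library and not a number of molecules per cell or per mitochondrion. The pools held 2431564 (AL) and 3242002 (CR) reads and the mitochondrial libraries 1070762 to 1577691, so that 1 read was worth 0.308 to 0.934 RPM. Hepatocyte miRNAs (miR-122, miR-192 and miR-194) reached a sum of 355689 RPM in the AL pool, 353077 RPM in the CR pool and 331721 to 617473 RPM across mitochondria, so the labelled tissue's markers were present. Since a few hepatocyte miRNAs took such different shares, the scaling of a library matters for every level below. CR mitochondria replicate 2 stood apart from the other mitochondrial libraries in having the lowest hepatocyte sum, through miR-122-5p alone (251755 RPM). The other abundant hepatocyte miRNAs were not low there, with miR-192-5p at 61871 RPM against 24869 to 57476 RPM and miR-194-5p second highest at 17519 RPM. Among mitochondrial libraries it also had the highest sums of endothelial (18066 RPM against 6694 to 9437 RPM) and bile duct epithelial markers (499 RPM against 240 to 426 RPM). Its pancreas sum was the highest too (98.9 RPM against 2.11 to 5.48 RPM), through miR-375-3p (63.4 RPM) and miR-217-5p (33.0 RPM). The other pancreas markers, miR-216a-5p and miR-216b-5p, were at 1.27 RPM each and not the highest there. The members' main differences are given with and without this library.

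The 5p arm of miR-106b and its 3p partner went opposite ways between whole liver and mitochondria. miR-106b-5p stood at 66.2 RPM in the AL pool and 66.6 RPM in the CR pool. The AL mitochondrial libraries held 91.4, 127 and 136 RPM (118 ± 23.7, SD, n = 3), and those of CR 79.1, 314 and 186 RPM (193 ± 118, SD, n = 3). Every mitochondrial library was thus above both pools, and CR mitochondria replicate 2 was the highest of all.

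miR-106b-3p, the other strand of the same duplex, showed the reverse order. It was at 58.8 RPM in the AL pool and 46.0 RPM in the CR pool. AL mitochondria held 11.1, 21.0 and 11.2 RPM (14.4 ± 5.68, SD, n = 3) and CR mitochondria 5.0, 14.6 and 4.67 RPM (8.08 ± 5.63, SD, n = 3). All 6 mitochondrial libraries lay below both pools, and the lowest 2 values rest on 6 and 5 reads.

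miR-25-3p, a relative of miR-92a-3p, was the most abundant member of whole liver. It was at 948 RPM in the AL pool, rank 50 of 597 listed names, and at 490 RPM in the CR pool. AL mitochondria held 253, 184 and 174 RPM (204 ± 42.9, SD, n = 3) and CR mitochondria 121, 208 and 76.6 RPM (135 ± 66.8, SD, n = 3). Both pools exceeded every mitochondrial library, and the AL and CR mitochondria overlapped.

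miR-93-5p, which has the seed of miR-106b-5p, was at 599 RPM in the AL pool and 427 RPM in the CR pool. In AL mitochondria the values were 263, 199 and 217 RPM (226 ± 33.0, SD, n = 3), and those of CR were 162, 250 and 164 RPM (192 ± 50.5, SD, n = 3). Again both pools were above all 6 mitochondrial libraries while the diets overlapped.

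miR-93-3p, the strand of the miR-93 duplex that is little retained, was close to the limit of counting throughout. The pools held 3 reads (1.23 RPM, AL) and 8 reads (2.47 RPM, CR). AL mitochondria held 1, 7 and 5 reads (0.923, 6.39 and 3.52 RPM). CR mitochondria held 1 read (0.833 RPM), 0 and 0, and a count of 0 allows up to 1.90 RPM in replicate 2 and 2.80 RPM in replicate 3, for counting error only. With so few reads, no order of the groups was read from them. miR-25-5p, the other arm of the miR-25 hairpin and not a member, was equally rare, at 0 to 4.11 RPM.

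**Figure D1:**
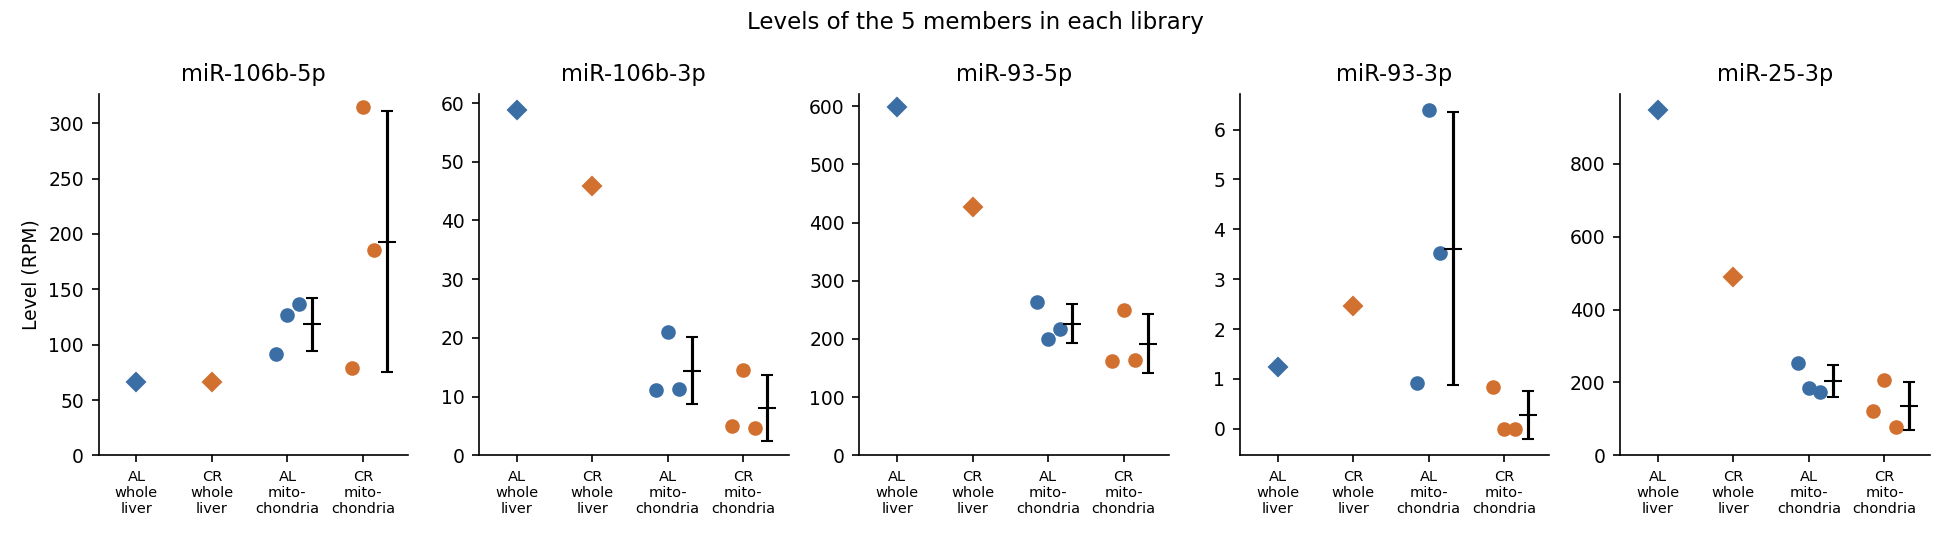
Level of each member in RPM (y axis, linear, a separate scale in each panel) in the whole-liver pools (diamonds, 1 per diet) and the mitochondrial libraries (circles, 3 per diet), with AL in blue and CR in orange and bars at the mean ± SD of the 3 mitochondrial libraries. miR-106b-5p is higher in all 6 mitochondrial libraries (79.1 to 314 RPM) than in the pools (66.2 and 66.6 RPM), whereas miR-106b-3p, miR-93-5p and miR-25-3p are lower.

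The order of the members changed between the fractions. Mature miRNAs are counted as whole molecules, so reads were not divided by length, and members of 21 to 23 bases were compared as reads. In both pools the order was miR-25-3p, miR-93-5p, miR-106b-5p, miR-106b-3p and miR-93-3p. In AL mitochondria the means of miR-93-5p (226 RPM) and miR-25-3p (204 RPM) did not differ beyond their spread. Within each of the 3 AL libraries miR-25-3p was below miR-93-5p (ratios 0.961, 0.922 and 0.803). The reads behind these ratios were 274 and 285, 201 and 218, and 248 and 309. Their counting error was not computed. miR-106b-5p followed at 118 RPM. In CR mitochondria the means of miR-106b-5p (193 RPM) and miR-93-5p (192 RPM) did not differ beyond their spread. miR-25-3p had a mean of 135 RPM and was below miR-93-5p in each of the 3 CR libraries. miR-106b-3p and miR-93-3p came last in both mitochondrial groups.

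Counted within the cluster alone, which no scaling of the library can alter, miR-106b-5p made up 3.96% of the members' reads in the AL pool and 6.46% in the CR pool. Its share in AL mitochondria was 14.8%, 23.6% and 25.1%, and in CR mitochondria 21.5%, 39.9% and 43.1%. miR-25-3p moved the other way, from 56.7% and 47.5% in the pools to 40.8%, 34.2% and 32.1% in AL mitochondria and 32.9%, 26.4% and 17.7% in CR mitochondria. Both shares separated mitochondria from pools without overlap, while the share of miR-93-5p stayed between 31.8% and 44.0% in all 8 libraries.

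The same shift can be stated as a ratio of 2 members of 1 primary transcript. There were 14.3 reads of miR-25-3p for each read of miR-106b-5p in the AL pool and 7.36 in the CR pool. In AL mitochondria the ratio was 2.77, 1.45 and 1.28, and in CR mitochondria 1.53, 0.661 and 0.412. Only the last 2 libraries held more miR-106b-5p than miR-25-3p. The ratio of miR-25-3p to miR-93-5p also fell below 1 in every mitochondrial library (0.466 to 0.961) but was above 1 in both pools (1.58 and 1.15).

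**Figure D2:**
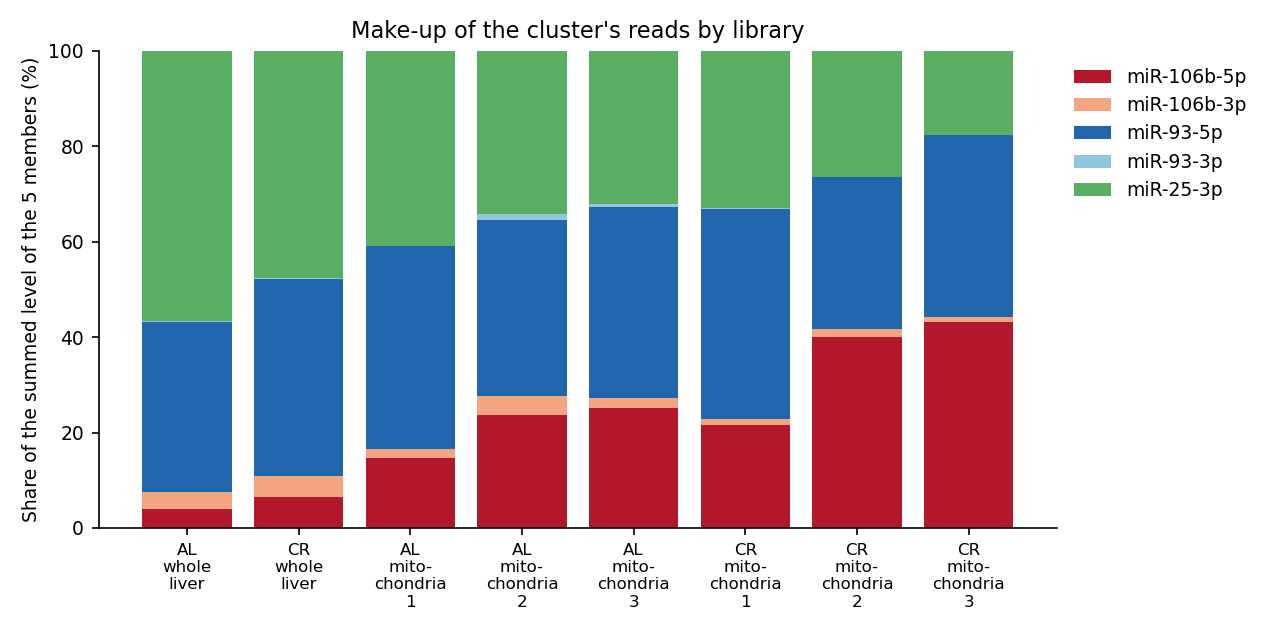
Share of each member in the summed reads of the 5 members (y axis, percent, stacked to 100) in each of the 8 libraries (x axis). The miR-106b-5p share widens from 3.96% and 6.46% in the pools to between 14.8% and 43.1% in mitochondria, the miR-25-3p share narrows, and miR-93-5p stays between 31.8% and 44.0%.

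The fractions were compared for all tested miRNAs together, to place the members among them. limma-trend was fitted to log2(RPM + 1) values of the 8 libraries, with diet as a covariate. The 417 miRNAs that reached 1 RPM in 3 or more libraries were tested, and p-values were adjusted over them by Benjamini-Hochberg. All 5 members passed that filter. Differences are mitochondria minus whole liver on the log2(RPM + 1) scale, which understates changes of rare miRNAs.

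Of the 5 members, 3 fell in mitochondria and 2 were not called at an adjusted p of 0.05. Of all 417 tested miRNAs 134 were called (32.1%), of which 44 were higher and 90 lower (21.6%). miR-25-3p fell by 2.10 (SE 0.36, 4.29-fold, limma adjusted p 0.000203). miR-106b-3p fell by 2.27 (SE 0.47, 4.84-fold, limma adjusted p 0.00113), and miR-93-5p fell by 1.29 (SE 0.32, 2.45-fold, limma adjusted p 0.00384). miR-106b-5p was higher by 1.06 (SE 0.42, 2.08-fold, limma adjusted p 0.0613), short of the threshold. miR-93-3p differed by -0.33 (SE 0.65, limma adjusted p 0.705). Marker sums of other cell types also differed between the fractions. The stellate cell and fibroblast sum was higher in all 6 mitochondrial libraries (25517 to 47282 RPM) than in the pools (14443 and 15573 RPM). That rise came through miR-143-3p alone (1.48, limma adjusted p 0.00386). Of the same list, miR-199a-5p (-1.59, limma adjusted p 0.00109) and miR-145a-5p (-1.25, limma adjusted p 0.00378) were lower. miR-199a-3p (-0.16) and miR-214-3p (-0.12) were not called. The bile duct epithelial sum was lower in all 6 mitochondrial libraries (240 to 499 RPM against 764 and 784 RPM). That fall came through miR-200a-3p (-0.91, limma adjusted p 0.0442) and miR-200b-3p (-2.79, limma adjusted p 3.47e-05). miR-200c-3p (-0.70), miR-429-3p (-1.12) and miR-141-3p (0.096) were not called. In CR mitochondria replicate 2, miR-200c-3p (33.6 RPM) and miR-141-3p (12.0 RPM) were above both pools. The part of these markers in the members' differences was not tested.

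On the deposited scale the 417 miRNAs had a median difference of -0.31, so the 3 members that fell did so by more than this shift. With TMM factors the median was 0.01 and the calls divided into 75 higher and 67 lower, with DESeq2 size factors into 62 and 72, with upper quartile factors into 67 and 72, and with miR-122 left out of the total into 65 and 63. The 3 members stayed lower and called under each of these, and miR-106b-5p became called higher, by 1.48 with TMM (limma adjusted p 0.00940) and 1.36 with DESeq2 factors (limma adjusted p 0.0122). Over 22 alternatives miR-106b-5p was higher in each, by 0.81 to 1.58, and past the threshold in 10, with limma, edgeR or DESeq2 adjusted p from 0.00297 to 0.410. The call of miR-25-3p held in all 22, at -2.28 to -1.65. Without CR mitochondria replicate 2 the same 3 members were called, miR-25-3p at -2.28, miR-106b-3p at -2.48 and miR-93-5p at -1.40, and miR-106b-5p was at 0.83 (limma adjusted p 0.0955).

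The other 2 calls were lost when a pool was left out. Without the CR pool miR-106b-3p was at -2.01 (limma adjusted p 0.0683) and miR-93-5p at -1.41 (limma adjusted p 0.0526), and without the AL pool miR-93-5p was at -1.18 (limma adjusted p 0.105). With diet as a covariate, leaving out a pool leaves only the other diet's libraries to compare the fractions. The fits of the AL libraries alone (-1.41) and of the CR libraries alone (-1.18) therefore repeat the miR-93-5p differences and are not further evidence. miR-93-5p was short of the threshold in both. The number of tested miRNAs called also dropped when a pool was left out, from 134 to 58 and 65. In 4 of the 5 members the 6 mitochondrial libraries and the 2 pools did not overlap, and the same was true of 42% of all tested miRNAs. Each diet has 1 pool, whole liver and mitochondria were extracted in different ways, and preparation and fraction cannot be told apart.

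**Figure D3:**
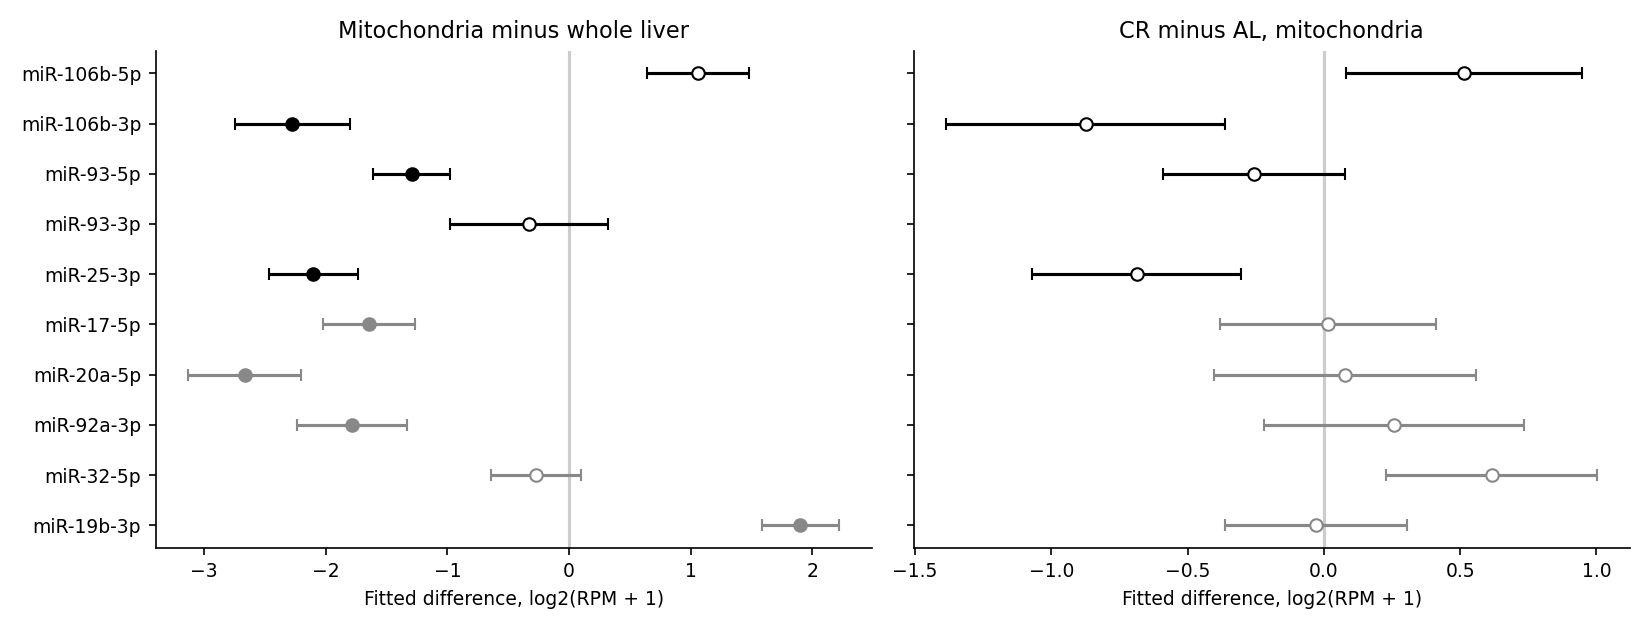
Fitted differences in log2(RPM + 1) with their standard errors for the members (black) and related miRNAs (grey), mitochondria minus whole liver over 8 libraries on the left and CR minus AL over 6 mitochondrial libraries on the right, with filled points at an adjusted p under 0.05. On the left miR-106b-3p (-2.27), miR-93-5p (-1.29) and miR-25-3p (-2.10) are filled and below 0, on the right no point is filled, and miR-93-3p was not tested there.

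The balance of the 2 arms of miR-106b shows the difference within 1 hairpin. In the AL pool there were 161 reads of the 5p arm and 143 of the 3p arm, a ratio of 1.13, and in the CR pool 216 and 149, a ratio of 1.45. The 5p arm thus made up 53.0% (95% exact Clopper-Pearson interval 47.2% to 58.7%) and 59.2% (53.9% to 64.3%) of the hairpin's reads. In AL mitochondria the ratio was 8.25, 6.04 and 12.1, and in CR mitochondria 15.8, 21.6 and 39.8. The 5p share was 89.1% ± 3.29 (SD, n = 3) in the AL and 95.7% ± 1.75 (SD, n = 3) in the CR mitochondrial libraries, and all 6 values lay above both pools.

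This ratio uses 1 library at a time and so does not depend on scaling. A fit over all hairpins with both arms measured was added after the members' values had been seen, with limma on log2((5p RPM + 1)/(3p RPM + 1)) and diet as a term. Of 111 hairpins, 36 were called (32.4%), 15 toward the 5p arm and 21 toward the 3p arm, and the median change was -0.29. miR-106b moved toward its 5p arm by 3.33 (SE 0.50, limma adjusted p 0.000888). It ranked 4 among the changes in that direction and 13 of 111 by size in either direction. Its call held in all 12 alternatives to this fit, including each library left out and each diet alone, at 2.82 to 3.85 and an adjusted p of 0.000120 to 0.0250. Leaving out a pool and fitting the other diet alone gave the same difference, so these alternatives are not separate evidence. Without CR mitochondria replicate 2 the miR-106b change was 3.31.

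The other hairpins of the cluster gave no call. miR-93 was at -0.96 (SE 0.76, limma adjusted p 0.383) and miR-25 at 1.26 (SE 0.73, limma adjusted p 0.215), both with a minor arm of few reads. The paralogous hairpins moved the opposite way to miR-106b, miR-20a by -3.41 (limma adjusted p 0.00446) and miR-17 by -1.86 (limma adjusted p 0.0138), both toward the 3p arm. The miR-20a 3p arm was itself rare, at 0.823 RPM in the AL pool, 0.308 RPM in the CR pool and between 0 and 4.62 RPM across mitochondria, so that change rests on few reads. Their difference from miR-106b was not itself tested.

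**Figure D4:**
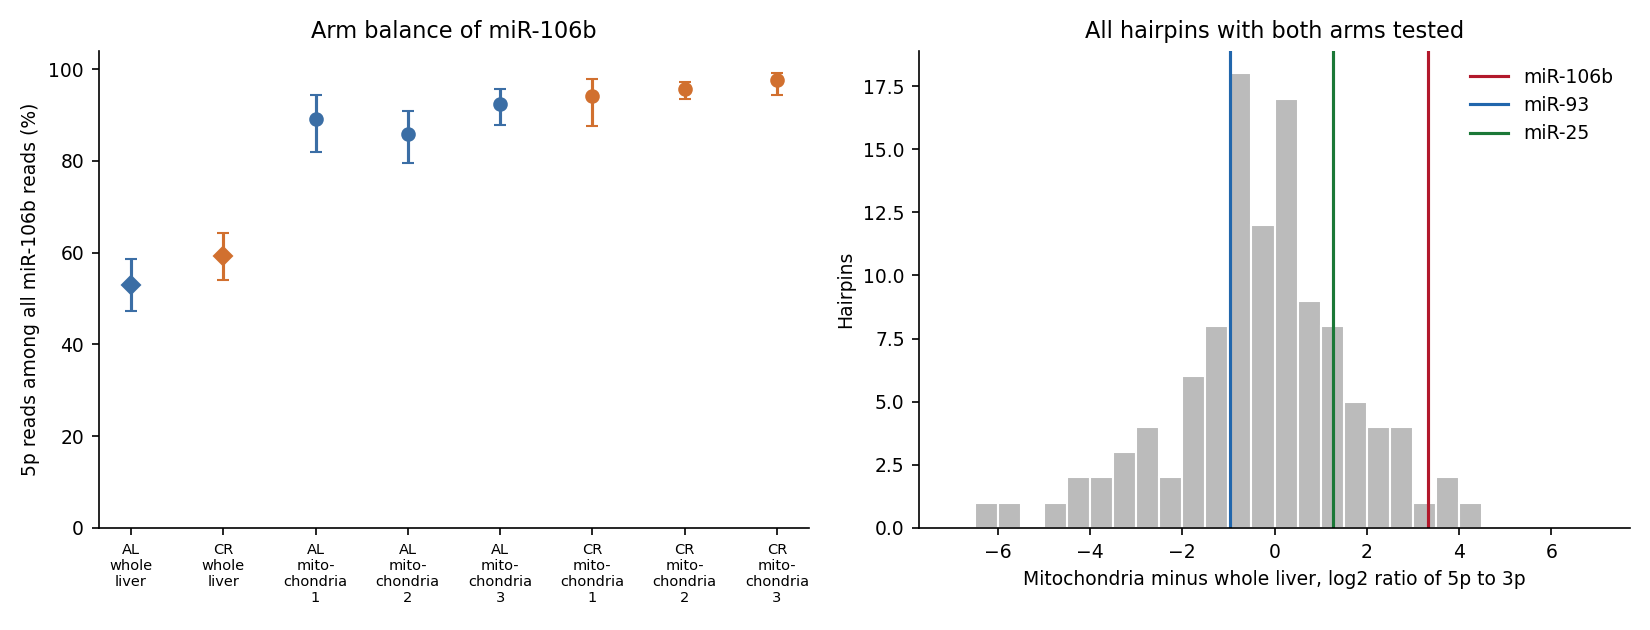
Left, percent of all miR-106b reads that came from the 5p arm (y axis) in each library, with exact 95% Clopper-Pearson intervals, diamonds for pools, circles for mitochondria, AL in blue and CR in orange. Right, number of hairpins (y axis) by the change in the log2 ratio of 5p to 3p, mitochondria minus whole liver (x axis), over the 111 hairpins fitted, with lines at miR-106b (3.33), miR-93 (-0.96) and miR-25 (1.26).

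No member was called between the diets within mitochondria. CR and AL were compared with limma-trend over the 6 mitochondrial libraries, where 2 of 391 tested miRNAs were called (0.512%) and 4 of the 5 members passed the filter. miR-25-3p differed by -0.69 (SE 0.38, limma adjusted p 0.499), miR-106b-3p by -0.87 (SE 0.51, limma adjusted p 0.499), miR-106b-5p by 0.51 (SE 0.43, limma adjusted p 0.658) and miR-93-5p by -0.26 (SE 0.33, limma adjusted p 0.806). None of the 4 separated the diets without overlap, against 19.4% of all tested miRNAs. In the main fit none of the 4 had an unadjusted limma p under 0.05. The members were not called under any of 19 alternatives either, including edgeR, DESeq2 and limma-voom.

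One library set much of the value of miR-106b-5p. It was at 314 RPM in CR mitochondria replicate 2, and without that library its difference was 0.06, whereas without CR mitochondria replicate 1 it was 1.05. Without replicate 2, miR-25-3p was at -1.05, miR-106b-3p at -1.35 and miR-93-5p at -0.46, with limma adjusted p from 0.216 to 0.538. The endothelial, bile duct epithelial and pancreas marker sums named above were also the highest among mitochondrial libraries in CR mitochondria replicate 2. The erythroid sum, of interest because the cluster is abundant in red cell precursors, was 41.5 to 67.4 RPM in AL mitochondria, 46.3 to 79.1 RPM in CR mitochondria and lowest among the CR mitochondria in replicate 2. Of the 5 erythroid markers 4 were listed, and miR-486b-5p was at 0 in all libraries. The part of these markers in the members' values was not tested. In bulk RNA, fewer cells of a type and less RNA per cell cannot be told apart.

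miR-93-3p was not tested for diet, since it reached 1 RPM in 2 of the 6 mitochondrial libraries, both AL. Without the filter on low values it differed by -1.71 (SE 0.65, limma adjusted p 0.264).

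The summed level of the 5 members was 1673 RPM in the AL pool and 1032 RPM in the CR pool, or 0.167% and 0.103% of the reads. Its mean was 566 ± 46.0 RPM (SD, n = 3) in the AL and 529 ± 226 RPM (SD, n = 3) in the CR mitochondrial libraries. The 3 CR libraries held 367, 787 and 431 RPM. The AL values, 537 to 619 RPM, fell inside the range of the CR values. The difference of mean log2 sums was -0.18 (exact two-sided permutation test, p 0.7, 0.7 after Benjamini-Hochberg adjustment over 3 tests), with 0.1 as the smallest p that 3 against 3 allows. Its sign turned with TMM factors (0.024), DESeq2 size factors (0.067) and upper quartile factors (0.11), and it was -0.51 without CR mitochondria replicate 2.

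The arm balance of miR-106b was higher in all 3 CR than in all 3 AL mitochondrial libraries. The mean log2 ratio differed by 1.50, a 2.82-fold higher ratio in CR (exact two-sided permutation test, p 0.1, the smallest possible, 0.3 after adjustment over 3 tests). Leaving out 1 library at a time gave 1.13 to 1.79, with 1.57 without CR mitochondria replicate 2. In the fit over 102 hairpins, the difference was 1.39 (SE 0.53, limma adjusted p 0.458), and 0% of the hairpins were called, with miR-106b at an unadjusted limma p of 0.0253. Of these hairpins 12.7% likewise had CR and AL libraries that did not overlap. The leukocyte and Kupffer cell marker sum also separated the diets in these libraries. It was 270.3 to 417 RPM in AL and 197 to 261 RPM in CR, but its markers disagreed. miR-142a-5p was lower in CR (74.7 to 103 RPM against 112 to 262 RPM), and miR-150-5p was higher (20.0 to 73.5 RPM against 12.7 to 18.5 RPM). miR-142a-3p, miR-223-3p and miR-155-5p overlapped between the diets. Of the stellate cell and fibroblast list, miR-199a-3p was lower in CR (544 to 689 RPM against 1532 to 2234 RPM) and called (-1.64, limma adjusted p 0.0141). miR-199a-5p (113 to 185 RPM against 335 to 346 RPM) and miR-214-3p (27.1 to 33.6 RPM against 42.5 to 64.8 RPM) were also lower without overlap. The sum of that list, miR-143-3p and miR-145a-5p overlapped between the diets. The part of these markers in the arm balance was not tested. The 5 to 23 reads of the 3p arm per mitochondrial library limit this comparison.

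For miR-93 the plain ratio cannot be formed in CR mitochondria replicates 2 and 3, where the 3p arm had 0 reads. Those libraries held 395 and 176 reads of the 5p arm. With 0.5 read added to each arm the mean log2 ratio was 2.29 higher in CR (exact two-sided permutation test, p 0.2, 0.3 after adjustment over 3 tests).

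In whole liver 3 of the 4 more abundant members were lower in the CR than in the AL pool, and with 1 library per diet there is no replicate check. The ranges in brackets are exact 95% Clopper-Pearson intervals, computed from the 2 read counts, and cover counting error only. miR-25-3p was 1.93-fold higher in the AL pool (1.81 to 2.06) from 2306 and 1590 reads. The CR to AL ratio of miR-93-5p was 0.712 (0.661 to 0.767), that of miR-106b-3p 0.781 (0.617 to 0.990) and that of miR-106b-5p 1.01 (0.817 to 1.24). The 8 reads of miR-93-3p against 3 gave a ratio of 2.00 (0.480 to 11.7). The members of 1 primary transcript therefore did not share 1 ratio between these pools, since the intervals of miR-25-3p and miR-106b-5p lie apart.

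Among miRNAs that reached 10 RPM in 1 or both pools, 32 of 243 were at least 2-fold apart (13.2%), 13 higher and 19 lower in CR, and 0 of these were among the 4 members at that level. The median log2 ratio of the 243 was -0.22, so most miRNAs at that level were also lower in the CR pool on the deposited scale. With TMM factors the log2 ratio of miR-25-3p moved from -0.95 to -0.73 and that of miR-93-5p from -0.49 to -0.27.

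Whether the diet difference depended on the fraction was tested by the interaction term over all 8 libraries. No miRNA was called by limma (0% of 417, 5 at an unadjusted p under 0.05), edgeR (0, 18 at an unadjusted p under 0.05), DESeq2 (0 and 8) or limma-voom (0 and 13). The interaction was 0.50 for miR-106b-5p, -0.52 for miR-106b-3p, 0.23 for miR-93-5p, 0.26 for miR-25-3p and -2.34 for miR-93-3p, each with a limma adjusted p of 0.998. Without CR mitochondria replicate 2 it was 0.049 for miR-106b-5p, -0.997 for miR-106b-3p, 0.026 for miR-93-5p, -0.10 for miR-25-3p and -2.20 for miR-93-3p. The standard errors were 0.66 to 1.25, larger than the differences of all members but miR-93-3p.

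The paralogous clusters miR-17-92 and miR-106a-363 give the nearest comparison. Of their 17 listed mature miRNAs 10 were tested between the fractions, of which 1 was higher and 3 lower in mitochondria, with a median of 0.13 beside -0.31 for all tested. The 3 that fell carry a seed of the cluster. miR-20a-5p fell by 2.67 (SE 0.46, limma adjusted p 0.000203), miR-92a-3p was at -1.78 (SE 0.46, limma adjusted p 0.00507) and miR-17-5p at -1.65 (SE 0.38, limma adjusted p 0.00237). miR-19b-3p, which has another seed, rose by 1.90 (SE 0.32, limma adjusted p 0.000153). Between the diets in mitochondria 9 were tested and 0 called, with a median of 0.08 beside -0.17.

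By seed, 4 names outside the cluster carry AAAGUGC, of which 3 were tested between the fractions, 2 were lower and none was higher, with a median of -1.65. Another 4 carry AUUGCAC, of which 2 were tested and 1 was lower, with miR-32-5p at -0.27 (SE 0.37, limma adjusted p 0.592). In mitochondria against whole liver miR-93-5p and miR-25-3p thus had the sign of their tested seed relatives, and miR-106b-5p had the opposite sign to miR-17-5p and miR-20a-5p. Among all reads with the AAAGUGC seed, miR-106b-5p and miR-93-5p together made up 30.3% and 32.1% in the pools and 43.2% to 71.2% in mitochondria. For AUUGCAC the share of miR-25-3p was 30.6% and 19.2% in the pools and 10.4% to 37.7% in mitochondria, with overlap.

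The miRNAs whose levels followed the summed cluster most closely were ranked by the root mean square difference of centred log2(RPM + 1) values, as a description only. Over the 8 libraries, 103 miRNAs with a mean of at least 100 RPM were compared, and the nearest were miR-103-3p (0.22), miR-100-5p (0.28) and miR-30d-5p (0.29), beside a median of 0.64. Over the 6 mitochondrial libraries, 98 were compared, and the nearest were miR-30d-5p (0.17), miR-23a-3p (0.19) and miR-30a-5p (0.20), beside a median of 0.45. The points share libraries and their scaling.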

How the data were processed

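The authors deposited 1 table per library of mature miRNA names with RPM values, in a column headed tpm that sums to 1000000. Reads were mapped with Bowtie to mm9, per the submitters' processing notes. The version, trimming, mismatches allowed and counting rules are not given in the sources used here. Dividing each deposited RPM column by its smallest value gave whole reads (within 0.01 read), which were used as counts of reads.

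limma-trend (limma 3.58.1, R 4.3.3) was fitted to log2(RPM + 1), and edgeR 4.0.16, DESeq2 1.42.0 and limma-voom were run on the recovered reads. All were tested on simulated data first. Permutation tests and intervals used Python 3.11.15 and scipy 1.17.1. Sequences came from RefSeq (GRCm38.p6) and gene models from GENCODE M21. The replicate numbers were checked for pairing. The correlation of deviations was 0.36, 0.075 and 0.11 for same-numbered libraries and -0.29 to 0.22 for differently numbered ones. These few values do not settle whether the libraries are paired. As planned, no block was used in the main fit, and the replicate block was run as an alternative.

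The members, lists and tests were chosen with earlier results of these data known. Besides the members, the text names miR-25-5p, paralogs past the threshold or with a member's seed, and the 3 miRNAs nearest in level.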

Additional observations from a re-analysis of the deposited data

How the results depend on the processing

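In the diet comparison of mitochondria, 0 members were called under any of 19 alternatives, and all tested miRNAs called numbered 2 as reported, 10 without a filter, 8 at 10 RPM, 5 with TMM, DESeq2 size or upper quartile factors and with limma-voom, 4 without miR-122, 7 with edgeR, 11 with DESeq2, 1 with robust moderation, 0 to 6 leaving out 1 library, and 3 with the replicate block, which called no member. miR-93-5p turned to 0.034 with upper quartile factors. Of the summed level's 12 alternatives 5 reversed it, to 0.024 (TMM), 0.067 (DESeq2 factors), 0.11 (upper quartile), 0.029 (without miR-25-3p) and, without CR mitochondria replicate 1, 0.044, with -0.51 to 0.044 over libraries left out. Between fractions, leaving out 1 library gave 1 to 4 members called and 58 to 140 miRNAs called in all, with 57 in AL and 76 in CR libraries alone. miR-93-3p turned to 0.26 with limma-voom and 0.84 in AL libraries alone, and ranged from -1.50 to 0.84 over libraries left out. The interaction called 129 miRNAs without a filter and 0 otherwise, and miR-25-3p ranged there from -0.10 (without CR mitochondria replicate 2) to 0.61. The planned test of the miR-93 plain ratio could not be fitted with 0 reads. The cause of these changes was not tested. The 0 to 23 reads of the minor arms and 1 pool per diet limit precision.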

Other observations

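The partner arms of the paralogs with a seed of the cluster differed in sign between the diets in mitochondria, and none of the 3 tested passed the adjusted threshold. miR-20a-3p was at 3.62 ± 0.943 RPM in AL and 0.523 ± 0.477 RPM in CR mitochondria (SD, n = 3), a difference of -1.64 (limma adjusted p 0.194). miR-17-3p was at 14.0 ± 4.24 RPM and 5.86 ± 1.92 RPM (SD, n = 3), a difference of -1.13 (limma adjusted p 0.329). miR-92a-1-5p was at 1.76 ± 1.02 RPM and 2.43 ± 1.13 RPM (SD, n = 3), a difference of 0.34 (limma adjusted p 0.849). miR-18a-5p, another miRNA of the miR-17-92 cluster, was at 3.08 ± 0.498 RPM and 7.88 ± 1.47 RPM (SD, n = 3), a difference of 1.12 (limma adjusted p 0.329). Over hairpins, the diet difference in the log2 ratio of 5p to 3p in mitochondria was 1.71 for miR-20a, 1.14 for miR-17 and 1.39 for miR-106b, each with a limma adjusted p of 0.458.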
